A study of Mus musculus with 11 samples.

Results

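Cell cycle and DNA replication genes were examined in the colon of germ-free and humanized mice. They are 44 genes listed by symbol, of the 43346 genes in the deposited count table, and all 44 were found and passed the filter on low counts. Of these, 19 were classed as S-phase members (cyclin E, E2f1, helicase loading and DNA synthesis) and 21 as mitotic members. The other 4 were put in neither class (the G1 cyclins Ccnd1 and Ccnd2 and the inhibitors Cdkn1a and Cdkn1b). Polyadenylated RNA of colonic tissue was sequenced from male Swiss Webster mice without a microbiota (germ-free, n = 5) and from mice of the same sex and strain carrying a human microbiota (humanized, n = 6). The humanized mice had been germ-free until they were given 300 μL of a stool suspension by gavage at 4 to 5 weeks of age. Both groups were studied at 8 to 10 weeks of age. All humanized mice received stool of 1 donor, so the donor and the presence of bacteria cannot be told apart.

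Cells of the colonic crypt divide in its lower part and stop dividing as they move to the surface. In a dividing cell, cyclin D and cyclin E kinases release E2F factors, which switch on genes for loading the replicative helicase and for making DNA. After replication, cyclin A and cyclin B with Cdk1 start mitosis, and kinases, motor proteins and the anaphase-promoting complex separate the chromosomes. Inhibitors such as p21 (Cdkn1a) and p27 (Cdkn1b) hold cyclin-dependent kinases back.

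Counts on genes were 49097005 to 64148538 per germ-free mouse and 39125290 to 54219854 per humanized mouse, and normalization factors (TMM, edgeR) were 1.03 to 1.12 and 0.876 to 1.03. Levels below are RPKM, reads per kilobase of the deposited gene length and per fixed number of normalized reads. Comparisons of levels between genes depend on that length, whose computation is not stated. LFC is the log2-fold change of humanized over germ-free mice, given with a standard error (SE), and FDR is the Benjamini–Hochberg adjusted p of edgeR's exact test over 19863 genes. A gene was called at FDR below 0.01. Every member had at least 117 counts in every mouse, the lowest being Cdc6.

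The cell cycle genes hardly separated the groups. Cdkn1a was the only member called, being higher in humanized mice, against 19.3% of all genes tested, 9.2% called higher and 10.1% called lower. The other 43 members gave 0 calls with edgeR's exact test, and 2 of them, Cdc45 and Ccnd2, had an unadjusted p below 0.05. An unadjusted p below 0.05 was reached by 3 of 44 members (6.82%) and by 37.4% of all genes, and an FDR below 0.05 by 1 member and by 28.6% of all genes. The quasi-likelihood test of edgeR called 0 members and 13.6% of all genes, and DESeq2 called 1 member, again Cdkn1a, and 22.0% of all genes. Ranges of the groups did not overlap for 1 member, against 18.4% of all genes. In whole tissue, a different number of dividing cells and a different amount of an RNA per cell cannot be told apart.

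Most members had an LFC slightly above that of the median gene. The median LFC was 0.12 over all 44 members, 0.15 over the S-phase members (from −0.06 to 0.45) and 0.12 over the mitotic members (from −0.10 to 0.28), beside 0.01 over all genes tested. LFC was above 0 for 39 of 44 members and 51.2% of all genes under TMM. Total-count scaling shifts all genes alike and moved the median of all genes to −0.18, so that 32 members were below 0, and 38 of 44 members lay above the median of all genes under either scaling. Measured from the median of all genes, the S-phase median was 0.14 under TMM and 0.15 under total counts, and the mitotic median was 0.11 under both. The 95% interval of LFC lay within ±0.5 for 29 of 44 members, and over the members other than Cdkn1a the intervals reached from −0.71 to 0.86.

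**Figure D1:**
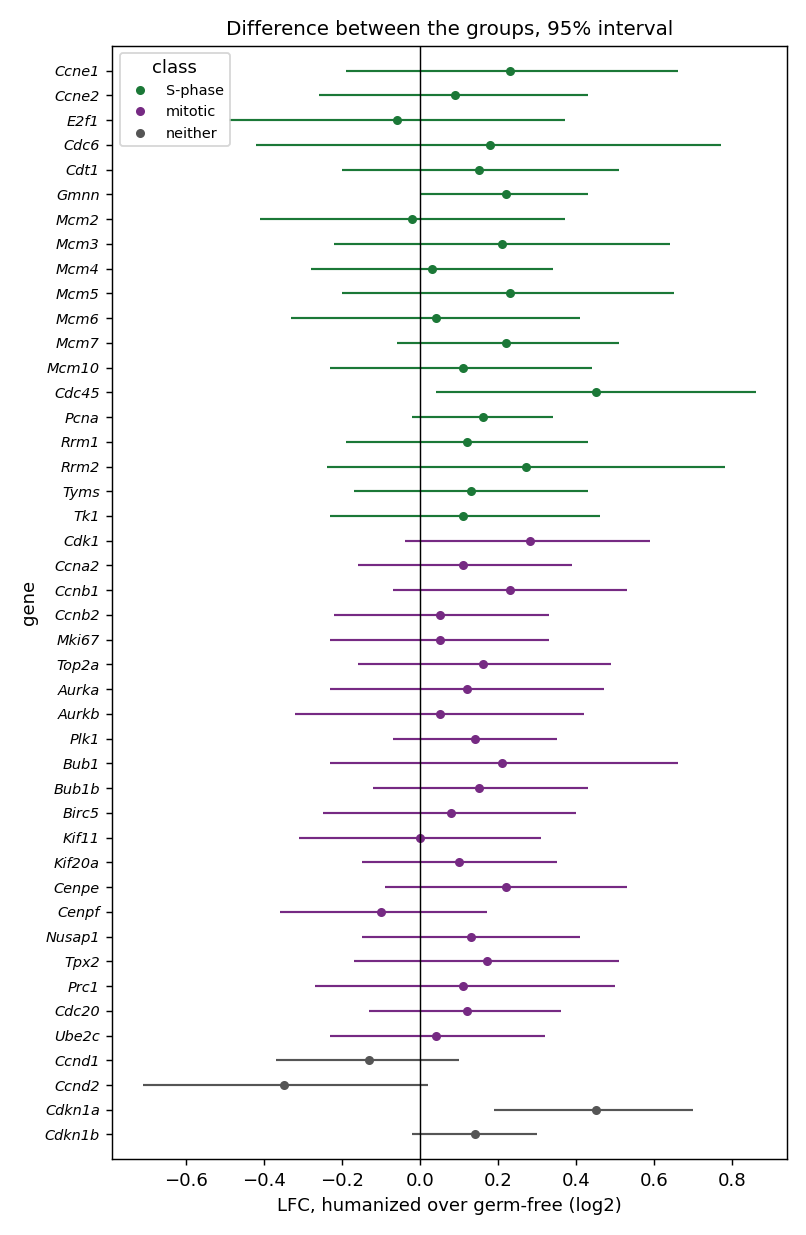
LFC of humanized over germ-free mice (log2, x axis) for the 44 members (y axis), with the 95% interval of the quasi-likelihood fit as a line, coloured by class. Cdkn1a at 0.45 is the called member, and 39 of the 44 points lie above 0 under TMM. Total-count scaling shifts all genes to a median of −0.18 and puts 32 members below 0, with 38 members above the median gene under either scaling.

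Cdkn1a encodes p21, which blocks cyclin-dependent kinases and is known as a target of p53. It was also the most abundant member in both groups. Its level was 52.0, 54.7, 56.9, 59.4 and 59.0 RPKM in germ-free mice 1 to 5, and 68.6, 63.4, 65.4, 73.9, 104 and 85.6 RPKM in humanized mice 1 to 6. The germ-free mice lay close together, every humanized mouse lay above them, and humanized mice 5 and 6 were the highest. The mean rose from 56.4 ± 3.12 RPKM (SD, n = 5) to 76.9 ± 15.6 RPKM (SD, n = 6), an LFC of 0.45 (SE 0.12, FDR = 0.0028, edgeR exact test). Without humanized mouse 5 the LFC was 0.34 and the FDR 0.0016. The call was lost with the quasi-likelihood test (FDR = 0.015) and with total-count scaling (LFC 0.25, FDR = 0.0654), where the groups also overlapped, with epithelial scaling (LFC 0.25, FDR = 0.0698), with the replicate block (LFC 0.39, FDR = 0.0332) and without any 1 of 4 mice, where the LFC was 0.41 to 0.45. Without germ-free mouse 1, 2 or 3 its FDR was 0.0161, 0.0148 or 0.0109, and without humanized mouse 6 it was 0.0116. Of the exonic bases of Cdkn1a, 7.68% are shared with an unclassified transcript on the other strand, and the library kit does not mark strand.

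Cdkn1a lies on chromosome 17 (29090979 to 29100722, mm10). RefSeq lists 2 of its starts, and the 180 bases before each are shown because Cdkn1a is the called member. Capitals mark matches to the p53 consensus decamer, which was searched for after the values were known and which 7.32% of the 18112 promoters in the RefSeq table hold (250 bases before to 50 after a start, GRCm38.p6).
Cdkn1a (chr17:29090799-29090978, plus strand): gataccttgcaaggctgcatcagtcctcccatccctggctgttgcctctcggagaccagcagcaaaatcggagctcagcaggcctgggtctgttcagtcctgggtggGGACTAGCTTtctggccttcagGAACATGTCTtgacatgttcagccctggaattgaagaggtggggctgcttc
Cdkn1a (chr17:29093589-29093768, plus strand): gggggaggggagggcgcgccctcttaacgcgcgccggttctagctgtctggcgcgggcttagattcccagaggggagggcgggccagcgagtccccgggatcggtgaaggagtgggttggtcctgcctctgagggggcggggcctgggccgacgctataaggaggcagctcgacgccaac
The window of the first start held 2 such matches, at −73 and −51 from the start, and that of the second start held 0. Neither window held a match to the E2F, CHR or CCAAT motifs given with the S-phase and mitotic genes.

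Cdkn1b encodes p27, the other inhibitor among the members. It measured 20.4, 18.9, 16.8, 16.3 and 15.7 RPKM in germ-free mice and 18.0 to 20.6 RPKM in humanized mice, with a median of 19.6. The groups overlapped, and the LFC was 0.14 (SE 0.07, FDR = 0.226). Its spread was smaller in humanized mice, with a coefficient of variation of 5.79% against 11.1%.

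The G1 cyclins were the members with the lowest LFC. Ccnd2 (cyclin D2) measured 8.16, 16.8, 9.78, 11.8 and 13.8 RPKM in germ-free mice and 7.53 to 11.1 RPKM in humanized mice, with a median of 9.64. The germ-free mice were spread over a 2.06-fold range that contained 4 of the 6 humanized mice. The LFC was −0.35 (SE 0.17, FDR = 0.129), and the FDR was 0.0232 without germ-free mouse 1, which was the lowest of its group. Without germ-free mouse 2, the highest, it was at least 0.223, then the lowest FDR of any member other than Cdkn1a. Ccnd1 (cyclin D1) was 30.3 ± 3.74 RPKM (SD, n = 5) in germ-free and 27.7 ± 4.02 RPKM (SD, n = 6) in humanized mice, an LFC of −0.13 (SE 0.11, FDR = 0.433). Under total-count scaling, with its shift of all genes, Ccnd2 had an LFC of −0.53 (FDR = 0.0152) and Ccnd1 of −0.32 (FDR = 0.03), and they were then the only members with an FDR below 0.05. With epithelial scaling Ccnd2 had an LFC of −0.49 (FDR = 0.0358). Of the exonic bases of Ccnd1, 23.4% are shared with LTO1 on the other strand.

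The 19 S-phase members gave 0 calls with edgeR's exact test, and Cdc45 alone had an unadjusted p below 0.05. Among the regulators of the G1/S step, cyclin E1 (Ccne1) was 1.88 ± 0.386 RPKM (SD, n = 5) in germ-free and 2.21 ± 0.54 RPKM (SD, n = 6) in humanized mice, an LFC of 0.23 (SE 0.20). Cyclin E2 (Ccne2) had an LFC of 0.09 (SE 0.16). E2f1, the transcription factor that activates S-phase genes, had an LFC of −0.06 (SE 0.20) and was the lowest of this class.

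The genes that license origins and load the helicase had a median LFC of 0.18 over 11 members. Cdc45, a subunit of the active helicase, measured 2.23, 1.99, 2.29, 2.06 and 2.64 RPKM in germ-free mice and 3.98, 3.28, 3.92, 2.02, 2.11 and 3.04 RPKM in humanized mice. Humanized mice 1, 2, 3 and 6 lay above all germ-free mice, and humanized mice 4 and 5 lay among them. The LFC was 0.45 (SE 0.19, 95% interval 0.04 to 0.86), as large as that of Cdkn1a, with an FDR of 0.106. It was the lowest FDR among the 43 members not called, and became 0.0328 without humanized mouse 4 and 0.223 without germ-free mouse 2.

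For all 6 subunits of the MCM helicase the 95% interval of LFC included 0. LFC was −0.02 (SE 0.18) for Mcm2, 0.21 (SE 0.20) for Mcm3, 0.03 (SE 0.14) for Mcm4, 0.23 (SE 0.20) for Mcm5, 0.04 (SE 0.17) for Mcm6 and 0.22 (SE 0.13) for Mcm7. Mcm6, the most abundant of them, measured 9.74, 9.84, 9.67, 10.0 and 11.8 RPKM in germ-free mice and 5.76 to 12.9 RPKM in humanized mice, with a median of 11.6. The highest and the 2 lowest values of the 11 mice were therefore all in humanized mice. Mcm5 ran from 6.18 to 8.89 RPKM in germ-free and from 4.63 to 10.8 RPKM in humanized mice, with humanized mice 1 and 3 at the top and humanized mouse 5 at the bottom.

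The RNAs of the factors that load the helicase gave no call. Cdc6, which recruits it to origins, measured 0.89, 0.91, 0.81, 0.78 and 1.30 RPKM in germ-free mice and 1.28, 1.26, 1.48, 0.64, 0.47 and 1.25 RPKM in humanized mice, an LFC of 0.18 (SE 0.27). It was the least abundant member in both groups and had the widest range among humanized mice, 3.13-fold. Its partner Cdt1 had an LFC of 0.15 (SE 0.16), and geminin (Gmnn), which inhibits Cdt1, had an LFC of 0.22 (SE 0.10, FDR = 0.185). Mcm10, which helps to start the helicase, had an LFC of 0.11 (SE 0.15).

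The genes for DNA synthesis and nucleotide supply gave 0 calls among 5 members with edgeR's exact test, and 0 unadjusted p below 0.05. Pcna, the sliding clamp of the DNA polymerases, was the most abundant S-phase member at 18.0, 19.9, 20.1, 20.9 and 21.5 RPKM in germ-free mice and 18.7 to 25.4 RPKM in humanized mice, with a median of 23.0. Its LFC was 0.16 (SE 0.08, FDR = 0.227). Counts of a pseudogene of it, Pcna-ps2, were 298 to 587 per mouse, and how reads shared with Pcna were assigned is not given in the sources used here. Of the ribonucleotide reductase subunits, Rrm2 varied most, from 2.98 to 5.52 RPKM in germ-free and from 2.60 to 6.12 RPKM in humanized mice (LFC 0.27, SE 0.23), and Rrm1 had an LFC of 0.12 (SE 0.14). Thymidylate synthase (Tyms) and thymidine kinase (Tk1) had LFC of 0.13 (SE 0.14) and 0.11 (SE 0.16).

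Promoter entries of RefSeq matched 35 of the 44 members by symbol. The E2F motif was searched on either strand as TTCCCGC, in another spelling as TTCGCGC, in a further spelling as TTGCCGC and lastly as TTGGCGC. It was found in 8 of 16 S-phase promoters, 3 of 17 mitotic promoters (17.6%) and 12.0% of all promoters. The 180 bases before the start of Mcm6, Mcm5 and Cdc6 are shown, the first 2 as the S-phase genes with the most E2F matches in these bases (over the longer window Mcm3 and Mcm7 had 3, as many as Mcm5) and Cdc6 as the first by name of those with 1, with E2F and CCAAT matches in capitals. A forward and a reverse match can overlap, as in Mcm6 and Mcm5.
Mcm6 (chr1:128359706-128359885, minus strand): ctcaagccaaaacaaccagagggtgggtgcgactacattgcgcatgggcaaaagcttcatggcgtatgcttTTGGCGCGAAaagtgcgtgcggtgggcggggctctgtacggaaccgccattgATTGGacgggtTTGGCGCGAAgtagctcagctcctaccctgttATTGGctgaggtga
Mcm5 (chr8:75109329-75109508, plus strand): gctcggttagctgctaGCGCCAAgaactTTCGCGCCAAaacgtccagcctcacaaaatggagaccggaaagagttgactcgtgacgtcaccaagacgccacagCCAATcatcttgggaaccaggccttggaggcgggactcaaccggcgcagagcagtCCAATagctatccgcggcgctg
Cdc6 (chr11:98907971-98908150, plus strand): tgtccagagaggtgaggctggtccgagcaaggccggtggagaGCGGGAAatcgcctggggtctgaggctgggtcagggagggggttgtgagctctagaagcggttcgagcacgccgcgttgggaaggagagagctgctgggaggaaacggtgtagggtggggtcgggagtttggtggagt
In Mcm6 the E2F matches began at −109, −106, −46 and −43, in Mcm5 at −164, −152 and −149, and in Cdc6 at −138. A match is a string in the sequence and does not show that a factor binds there.

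The 21 mitotic members gave 0 calls with edgeR's exact test and 0 unadjusted p below 0.05. The quasi-likelihood test and DESeq2 also called 0. Cdk1, the kinase that starts mitosis, measured 4.15, 4.86, 4.96, 4.84 and 5.83 RPKM in germ-free mice and 7.90, 6.78, 6.22, 5.05, 4.19 and 5.68 RPKM in humanized mice. Humanized mice 1, 2 and 3 lay above all germ-free mice, but the others lay among them, and the LFC was 0.28 (SE 0.15, FDR = 0.204), the highest of this class. Its cyclins followed with smaller differences, as Ccna2 had an LFC of 0.11 (SE 0.13), Ccnb1 of 0.23 (SE 0.14) and Ccnb2 of 0.05 (SE 0.13).

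Mki67 encodes Ki-67, the protein most used to mark dividing cells. It measured 6.82, 7.40, 8.17, 8.11 and 9.19 RPKM in germ-free mice and 9.19, 9.20, 9.10, 6.73, 5.79 and 9.29 RPKM in humanized mice. Humanized mice 1, 2, 3 and 6 were alike and close to the highest germ-free mouse, and humanized mice 4 and 5 were below every germ-free mouse. The LFC was 0.05 (SE 0.13, 95% interval −0.23 to 0.33, FDR = 0.836). Topoisomerase II alpha (Top2a), which untangles chromosomes before they part, was 7.01 ± 1.02 RPKM (SD, n = 5) in germ-free and 7.85 ± 1.70 RPKM (SD, n = 6) in humanized mice (LFC 0.16, SE 0.15).

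Of the mitotic kinases, Plk1 had the highest level per deposited length. It measured 37.6, 40.5, 38.9, 31.2 and 35.9 RPKM in germ-free mice and 43.7, 37.7, 47.3, 44.8, 35.7 and 33.8 RPKM in humanized mice (LFC 0.14, SE 0.10, FDR = 0.37). This was above every other mitotic member in every mouse, of which Cdc20 reached the most, 16.3 RPKM. Its order among the mice also differed, since germ-free mouse 5 and humanized mouse 6, high for most mitotic genes, were not high for Plk1. Of its exonic bases, 7.09% are shared with an unclassified transcript on the other strand.

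The other kinases and the checkpoint, motor and spindle genes gave no call either. LFC was 0.12 (SE 0.16) for Aurka and 0.05 (SE 0.17) for Aurkb, the Aurora kinases of the spindle pole and of the chromosome. The checkpoint genes Bub1 and Bub1b had LFC of 0.21 (SE 0.21) and 0.15 (SE 0.13), and survivin (Birc5), which acts with Aurkb, had an LFC of 0.08 (SE 0.15). Among the motor proteins Kif11 had an LFC of 0.00 (SE 0.14) and Kif20a of 0.10 (SE 0.12). The kinetochore proteins Cenpe and Cenpf had LFC of 0.22 (SE 0.14) and −0.10 (SE 0.12), the latter being the lowest of the mitotic members. The spindle proteins Nusap1, Tpx2 and Prc1 had LFC of 0.13 (SE 0.13), 0.17 (SE 0.16) and 0.11 (SE 0.18). Cdc20, an activator of the anaphase-promoting complex, and Ube2c, its ubiquitin-conjugating enzyme, had LFC of 0.12 (SE 0.11) and 0.04 (SE 0.13). Exonic bases are shared with another gene by 15 of the 44 members, among them Kif20a (29.3% with Cdc23), Ube2c (22.8% with Tnnc2), Ccne2 (17.4% with Ints8), Ccna2 (12.5% with Exosc9) and Prc1 (11.1% with Rccd1).

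Promoters of the mitotic members shared a different motif pair. The CHR motif (TTTGAA or TTCGAA, either strand) was found in 13 of 17 (76.5%), against 3 of 16 S-phase promoters (18.8%) and 17.9% of all promoters. The CCAAT box (CCAAT, either strand) was found in 15 of 17 (88.2%), against 10 of 16 (62.5%) and 38.3%. Both together were found in 13 mitotic promoters (76.5%), 3 of 16 S-phase promoters (18.8%) and 7.25% of all promoters. Top2a, Cdk1 and Mki67 are shown as mitotic windows that hold more than 1 copy of each, with E2F, CHR and CCAAT matches in capitals.
Top2a (chr11:99024190-99024369, minus strand): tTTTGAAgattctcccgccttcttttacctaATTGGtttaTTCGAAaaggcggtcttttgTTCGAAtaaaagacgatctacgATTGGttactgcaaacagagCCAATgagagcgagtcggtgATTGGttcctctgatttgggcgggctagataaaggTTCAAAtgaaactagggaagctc
Cdk1 (chr10:69352913-69353092, minus strand): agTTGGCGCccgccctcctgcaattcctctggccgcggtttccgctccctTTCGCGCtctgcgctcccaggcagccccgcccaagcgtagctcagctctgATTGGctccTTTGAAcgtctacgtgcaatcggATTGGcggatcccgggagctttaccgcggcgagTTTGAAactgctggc
Mki67 (chr7:135716380-135716559, minus strand): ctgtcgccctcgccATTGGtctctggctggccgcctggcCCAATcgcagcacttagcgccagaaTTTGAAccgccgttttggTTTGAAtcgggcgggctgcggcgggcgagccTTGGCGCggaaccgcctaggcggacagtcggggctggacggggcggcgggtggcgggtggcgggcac
The CHR matches began at −179, −140, −120 and −23 in Top2a, at −71 and −15 in Cdk1, and at −116 and −98 in Mki67. Cdk1 and Mki67 also held E2F matches, at −178 and −130 and at −67.

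S-phase and mitotic members were then compared mouse by mouse, as the mean log2 CPM of each class relative to the germ-free mean. The S-phase class was at −0.13, −0.02, −0.03, −0.05 and 0.24 in germ-free mice and at 0.45, 0.27, 0.44, −0.23, −0.44 and 0.20 in humanized mice. The mitotic class was at −0.26, −0.05, 0.05, 0.05 and 0.20 in germ-free mice and at 0.42, 0.22, 0.18, −0.08, −0.37 and 0.23 in humanized mice. In humanized mice both classes were high in mice 1, 2, 3 and 6 and low in mice 4 and 5. The group means differed by 0.12 for the S-phase class (SD 0.14 in germ-free, 0.37 in humanized mice) and by 0.10 for the mitotic class (SD 0.17 and 0.28), so both differences were smaller than the spread within either group.

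**Figure D2:**
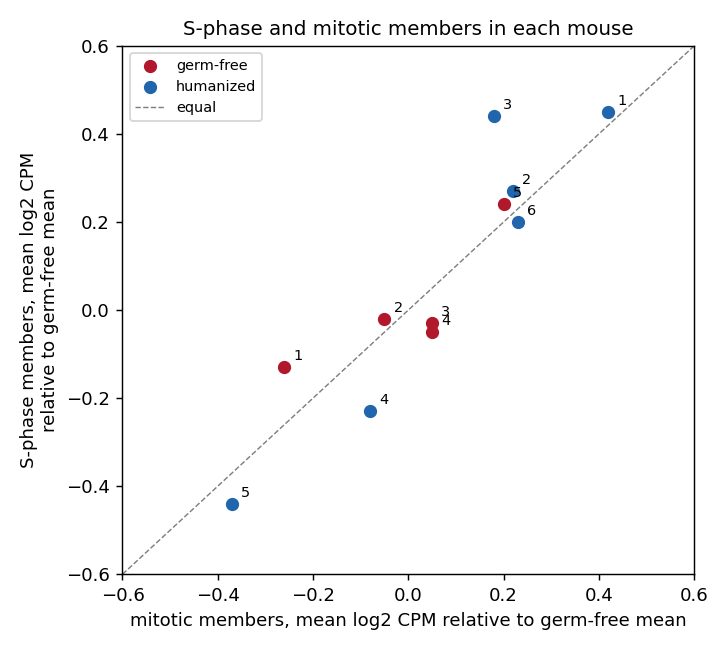
Mean log2 CPM of the S-phase members (y axis) against that of the mitotic members (x axis), both relative to the germ-free mean, with 1 numbered point per mouse and a dashed line where both are equal. Humanized mice span the range from −0.44 to 0.45 for S phase, and germ-free mice from −0.13 to 0.24.

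The S-phase class did not separate from the mitotic class between the groups. S-phase minus mitotic was 0.12, 0.03, −0.08, −0.10 and 0.03 in germ-free mice and 0.04, 0.05, 0.26, −0.15, −0.07 and −0.03 in humanized mice. The group means differed by 0.02, with SD of 0.09 and 0.14. Humanized mouse 3 was the farthest from 0, with S-phase genes above mitotic genes, and without it the difference was −0.03. The members share libraries and are not independent, so no p is given for a class.

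Members moved together within a mouse. Germ-free mouse 5 was the highest of its group for 18 of 19 S-phase and 18 of 21 mitotic members, and germ-free mouse 1 was the lowest for 19 mitotic members. Humanized mouse 1 was the highest for 10 S-phase and 17 mitotic members, and humanized mouse 3 for 7 S-phase members. Humanized mouse 5 was the lowest for 14 S-phase and 19 mitotic members, and it was the mouse with the most Cdkn1a. It also had the highest summed markers of colon epithelium (5730 RPKM). Its sums were the lowest for smooth muscle (48.0 RPKM), fibroblasts (22.9 RPKM), macrophages (105 RPKM) and the crypt base (73.6 RPKM). Of the crypt base genes, Smoc2, Sox9, Ephb3, Cd44 and Cdca7 were lowest in this mouse. Lgr5, Ascl2, Axin2, Ephb2, Myc and Rnf43 were not. The part of these markers in its low cell cycle genes was not tested. Without humanized mouse 5, 13 members had an unadjusted p below 0.05 and 4 had an FDR below 0.05 (Cdc45, Cdk1, Cdkn1a and Mcm7), but still 1 was called, and the S-phase and mitotic medians were 0.21 and 0.18. The shares of all genes without this mouse are not given here. With all mice they were 37.4% and 28.6%.

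**Figure D3:**
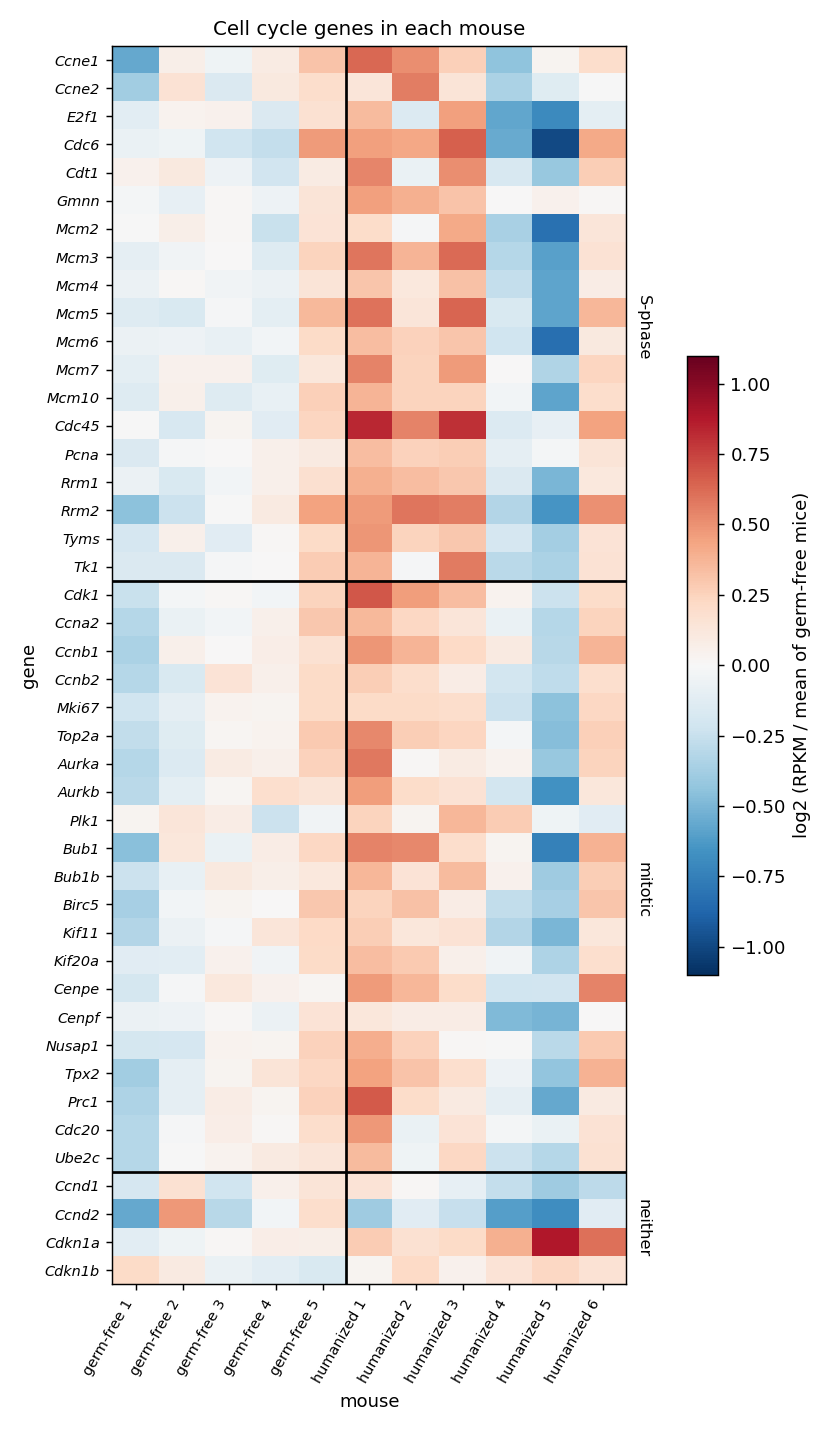
Level of each of the 44 members (rows, by class) in each mouse (columns), as log2 of RPKM over the mean of the germ-free mice. Columns of humanized mice 1, 2 and 3 are mostly red (above the germ-free mean), those of humanized mice 4 and 5 mostly blue, and the Cdkn1a row is red in all 6 humanized mice.

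The spread among humanized mice was wider than among germ-free mice. The coefficient of variation was larger in humanized mice for all 40 S-phase and mitotic members, and for 80.2% of all genes tested. Its median was 10.7% in germ-free and 25.5% in humanized mice for S-phase members, 13.1% and 19.2% for mitotic members, and 10.4% and 16.5% for all genes. Only Ccnd2 and Cdkn1b, of the 44 members, varied more in germ-free mice.

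Genes of the same pathways outside the members were counted from 3 wider lists. Of 119 genes tested, 5 were called higher and 1 lower (5.04%, beside 19.3% of all genes), with a median LFC of 0.10. Of 47 further replication genes 3 were higher (Gins2, Pold3 and Rfc2), and 0 were lower. Gins2, a subunit of the active helicase, was 11.2 ± 0.465 RPKM (SD, n = 5) in germ-free and 13.1 ± 0.83 RPKM (SD, n = 6) in humanized mice, an LFC of 0.23 (SE 0.06, FDR = 0.00718), a call that 15 of 20 alternative settings lost. Of 48 further mitosis genes only Pkmyt1, a kinase that restrains Cdk1, was called. It rose from 16.8 ± 1.34 to 21.0 ± 1.45 RPKM (SD, n = 5 and 6), an LFC of 0.32 (SE 0.07, FDR = 9.04e-04), and the groups did not overlap. The Pkmyt1 call was lost with total-count scaling (LFC 0.13, FDR = 0.174), with epithelial scaling (LFC 0.14, FDR = 0.294) and with the replicate block (LFC 0.32, FDR = 0.0238).

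Larger differences were seen for 2 regulators of G1. Cdkn2b, which encodes the inhibitor p15 of Cdk4 and Cdk6, measured 33.2, 29.1, 33.4, 35.3 and 31.7 RPKM in germ-free mice and 58.5, 42.9, 49.6, 49.1, 68.7 and 49.3 RPKM in humanized mice. All humanized mice lay above all germ-free mice, and it rose with an LFC of 0.71 (SE 0.11, FDR = 5.78e-08). Cdk6, a kinase that p15 inhibits, measured 12.6, 11.4, 10.5, 9.43 and 9.31 RPKM in germ-free mice and 6.89, 5.99, 6.46, 6.36, 6.68 and 5.01 RPKM in humanized mice. It fell in the same way without overlap, with an LFC of −0.77 (SE 0.10, FDR = 2.62e-10). Both calls held in all 20 alternative settings, and they were the only calls among 24 G1 genes tested (8.33%, below the 19.3% of all genes). Cdk4, the kinase closest to Cdk6, was 27.9 ± 0.549 and 29.0 ± 2.57 RPKM (SD, n = 5 and 6, LFC 0.06, SE 0.06), and Ccnd3 (cyclin D3) had an LFC of 0.02 (SE 0.09).

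**Figure D4:**
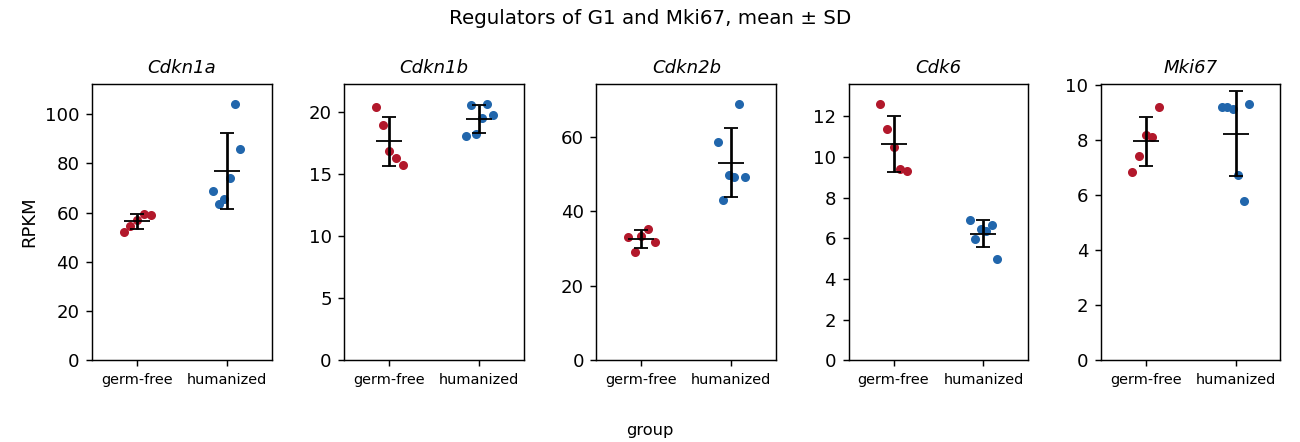
RPKM (y axes, from 0) of Cdkn1a, Cdkn1b, Cdkn2b, Cdk6 and Mki67 in 5 germ-free (red) and 6 humanized (blue) mice, with 1 point per mouse and bars for the mean ± SD. Cdkn1a and Cdkn2b lie higher and Cdk6 lower in all humanized mice, while Cdkn1b and Mki67 overlap.

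Since Cdkn1a is a known p53 target, 17 p53 target genes were listed beside it. Of these 3 were higher and 1 was lower (23.5% called, near the 19.3% of all genes), with a median LFC of 0.02. Bax, which promotes cell death, rose from 28.7 ± 1.09 to 38.3 ± 2.53 RPKM (SD, n = 5 and 6, LFC 0.42, SE 0.06, FDR = 3.57e-06). Btg2, an antiproliferative gene, rose from 40.1 ± 0.598 to 52.2 ± 7.92 RPKM (LFC 0.38, SE 0.09, FDR = 0.00142). Both calls were lost with total-count scaling (Bax LFC 0.23, FDR = 0.0186, and Btg2 LFC 0.19, FDR = 0.128), with epithelial scaling (LFC 0.23 and 0.21, FDR = 0.181 and 0.32) and with the replicate block (LFC 0.42 and 0.39, FDR = 0.0112 and 0.0277). Trp53inp1 was the other gene called higher (LFC 0.43, SE 0.11, FDR = 0.00159), and Phlda3 was called lower (LFC −1.09, SE 0.33, FDR = 0.00877). For both the groups overlapped and the quasi-likelihood test gave no call (FDR = 0.0107 and 0.0261). Mdm2 and Ccng1, among the best known p53 targets, had LFC of −0.01 (SE 0.06) and 0.05 (SE 0.06).

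Markers of several cell types in the tissue moved with the groups, and their part in the results on cell cycle genes was not tested. Markers of the crypt base and of progenitors, in the part of the crypt where cells divide, were lower for 6 of 11 genes (Lgr5, Ascl2, Smoc2, Axin2, Sox9 and Myc). Their summed levels were 99.5 to 114 RPKM in germ-free and 73.6 to 92.1 RPKM in humanized mice. The crypt base genes not called had LFC from −0.19 (Cd44) to 0.17 (Ephb2). Smooth muscle markers were lower for 10 of 10 genes, at 403 to 1150 and 48.0 to 402 RPKM, and fibroblast markers for 6 of 7, at 197 to 315 and 22.9 to 163 RPKM. With the quasi-likelihood test 4 of 11 crypt base, 5 of 10 smooth muscle and 4 of 7 fibroblast markers were called. Colon epithelium markers were higher for 2 of 11 (18.2%, beside 19.3% of all genes), at overlapping sums of 3790 to 5070 and 4230 to 5730 RPKM. Surface colonocyte markers were higher for 2 of 7 (28.6%), Car1 and Ceacam20, at 4940 to 7040 and 8650 to 14200 RPKM. Without Car1, 1 of 6 was called (16.7%) and the sums overlapped, at 2800 to 3360 and 2380 to 3990 RPKM. Of the markers not called, Slc26a3, Krt20 and Car4 had LFC of 1.13, 0.41 and 0.24, and Guca2a and Cdhr5 of −0.28 and −0.06. Slc26a3 reached 70.5 RPKM in humanized mouse 6, beside a humanized median of 15.5 RPKM. When the libraries were scaled to the 11 epithelial markers, the median of all genes was −0.17, 29 members had an LFC below 0, and Cdkn1a had an LFC of 0.25 (FDR = 0.0698).

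Immune cells can also divide. Plasma cell markers were higher for 5 of 6 genes, at 134 to 173 RPKM in germ-free and 239 to 753 RPKM in humanized mice. T cell markers were higher for 4 of 6 (4.85 to 6.23 and 7.63 to 15.7 RPKM). B cell markers were higher for 1 of 6 (1.76 to 4.04 and 2.83 to 19.1 RPKM). Each list stands beside 19.3% of all genes called. The B cell sum was 13.9 and 19.1 RPKM in humanized mice 2 and 3 and 2.83 to 5.63 RPKM in the other humanized mice. Its called gene, Cd79a, overlapped between the groups and was not called with the quasi-likelihood test (FDR = 0.0318). Xbp1 and Sdc1 (means 60.1 and 59.0 RPKM) made most of the germ-free plasma cell sum. Their LFC were 0.60 and 0.14, and Sdc1 was not called. Jchain, Mzb1, Tnfrsf17 and Derl3 had LFC of 3.21, 3.49, 3.32 and 2.28. Macrophage markers went both ways. Of 6, only Cd14 was called, higher in humanized mice, while Adgre1, Csf1r, Cd68 and C1qa had LFC of −0.67, −0.53, −0.74 and −0.26, the median LFC was −0.40, and the sums overlapped (138 to 164 and 105 to 268 RPKM). Germinal centre B cell markers did too. Of 6 tested, only Rgs13 was called, higher with an LFC of 1.55. It was at 1.97 to 3.17 RPKM in humanized mice, a narrower spread than that of the B cell sum. Whether its RNA stems from these cells was not tested. S1pr2 had an LFC of −0.67 (FDR = 0.0154, edgeR exact test) and Bcl6 of −0.25. Gcsam, Fas and Mybl1 had LFC of 0.27, 0.26 and 0.19, and the median LFC was 0.23. The sums were 11.3 to 13.9 and 13.0 to 17.6 RPKM, of which Fas alone had means of 7.35 and 8.82 RPKM. For the macrophage, germinal centre and B cell lists 1 of 6 is 16.7%, near the 19.3% of all genes.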

How the data were processed

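Colonic RNA of 5 germ-free and 6 humanized mice was sequenced as 101 bp paired-end reads. Per the labels, the authors' processing named TopHat2 2.1.0, Bowtie2 2.2.3, featureCounts of Subread 1.4.6-p5 and mm10, and they deposited raw counts of 43346 genes. The strand setting and the treatment of reads shared between genes are not given in the sources used here. How the deposited gene length was computed is not stated.

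The main test was edgeR 4.0.16 in R 4.3.3 (filterByExpr with a minimum count of 10, TMM, exact test, FDR below 0.01), which kept 19863 genes. Standard errors and 95% intervals came from the quasi-likelihood fit. RPKM used TMM-normalized libraries, and class levels were means of log2 CPM without a prior count. A prior count of 2 was used for the correlations between mice. DESeq2 1.42.0, other scalings and filters, each mouse left out in turn and a replicate block were alternatives. The tests of single genes were tried on simulated counts, with changes larger than the LFC of any member. Class levels, other scalings and motif counts were not tried in that way. Labels name no batch, isolator or cage. p-values measure the spread between the mice of the 2 groups.

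The members and lists were chosen with earlier results of these data known. Wider-list genes named are those called without overlap with the highest or lowest LFC. Pold3, Rfc2, Trp53inp1, Phlda3, Cdk4, Ccnd3, Mdm2, Ccng1 and the marker genes are named outside that rule, after their values were seen. Exon overlaps used GENCODE M21, whose gene positions match the table for 31 of 44 members. The result of 1 marker gene is not reported here.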

Additional observations from a re-analysis of the deposited data

Results flagged for a closer look

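Among the 88 sets of 5 or 6 values checked (44 members in each group), 3 held a mouse far from the others of its group, and chance alone marks about 1 in 20 sets. All 3 were S-phase genes in germ-free mouse 5, which was the highest germ-free mouse for 18 of 19 S-phase members. Cdc6 was 1.30 RPKM in this mouse and 0.91 RPKM in the next. Mcm5 was 8.89 RPKM against 6.85 RPKM, and Mcm6 was 11.8 RPKM against 10.0 RPKM. Without germ-free mouse 5, the S-phase median LFC was 0.19 instead of 0.15, and 1 member was called as before.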

How the results depend on the processing

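The number of members called was 0 instead of 1 with the quasi-likelihood test, with total-count scaling and with scaling to epithelial markers, and it was 0 to 1 when each mouse was left out in turn. With either of those scalings, 0 members had groups that did not overlap, and 1 did whichever mouse was left out. With total counts the S-phase and mitotic medians were −0.03 and −0.07 and with epithelial scaling −0.01 and −0.04, beside −0.18 and −0.17 for all genes. Leaving out each mouse gave 0.08 to 0.21 for the S-phase median, 0.04 to 0.19 for the mitotic median and −0.03 to 0.05 for S-phase minus mitotic. The wider lists, p53 targets included, gave 10 calls, 4 with epithelial scaling, 6 with no filter, 18 at FDR below 0.05 and 6 to 12 without 1 mouse. Of the values of single genes under the alternatives, 968 kept their side of the threshold and 32 lost it, 8 of them for Cdkn1a and 15 for Gins2. With the replicate block, fitted with the quasi-likelihood test, 0 members and 2 genes of the wider lists were called, where that test without the block called 0 and 7, and the Cdkn1a LFC was 0.39 (FDR = 0.0332, quasi-likelihood test). Mice with the same number did not deviate together (correlations from −0.133 to 0.091), and not every mouse correlated best with its own number, so the numbers only name the mice. The cause of these changes was not tested. The lowest count of a member in a mouse was 117.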
